A study of Rattus norvegicus with 108 samples.

Results

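The genes described here encode 8 proteins of synaptic vesicle release: Syt1, Snap25, Vamp2, Cplx1, Cplx2, Napb, Syn1 and Syn2. They were chosen by symbol from the 19127 genes of the deposited single-cell count tables, and all 8 were present. Their levels were followed across cell types, between brain regions, between cells poor and rich in ribosomal protein transcripts, and between fluoxetine-treated and control animals.

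The study profiled droplet-captured material of the dentate gyrus, punched separately from its dorsal (dorDG) and its ventral (venDG) part in male Long-Evans rats supplied by Charles River. The rats were 2 months old and received fluoxetine, a serotonin reuptake inhibitor, at 18 mg per kg (FT) or water alone (Sham) for 6 weeks. Each replicate was tissue pooled from several animals, so the spread between replicates is a spread between pools. There were 4 dorDG FT replicates with 570 cells, 5 dorDG Sham replicates with 719 cells, 5 venDG FT replicates with 1249 cells and 5 venDG Sham replicates with 809 cells. No strain or genotype difference separated the groups, and the labels name no transgene or deletion. The word "cells" is used here for all profiles, although the labels speak only of nuclei and the study's methods describe both whole-cell and nuclear suspensions made from each tissue.

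A presynaptic terminal releases transmitter when a vesicle fuses with the membrane. SNARE proteins on the vesicle (synaptobrevin, from Vamp2) and on the terminal membrane (SNAP-25, from Snap25) zip together. Complexins (Cplx1 and Cplx2) hold the assembled complex in a primed state, and synaptotagmin-1 (Syt1) senses the calcium that triggers fusion. Afterwards beta-SNAP (Napb) helps to take the SNARE complex apart for reuse. Synapsins (Syn1 and Syn2) tether the reserve of vesicles. These proteins act in nerve endings, and in the dentate gyrus the cells known to use them for release are granule cells, mossy cells and other excitatory and inhibitory neurons.

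The promoters of Syt1 and Vamp2 are shown because these genes moved in opposite directions between ribosome-poor and other cells. Each run is the 250 bases before the RefSeq gene start on the rat assembly GRCr8, 5′ to 3′ on the gene's strand, with GC boxes in capitals (GGGCGG or its complement CCGCCC, both strands, overlaps allowed). The submitters' notes list rn5, and the coordinates are therefore those of the RefSeq table only.
Syt1, chr7:46244214-46244463, minus strand: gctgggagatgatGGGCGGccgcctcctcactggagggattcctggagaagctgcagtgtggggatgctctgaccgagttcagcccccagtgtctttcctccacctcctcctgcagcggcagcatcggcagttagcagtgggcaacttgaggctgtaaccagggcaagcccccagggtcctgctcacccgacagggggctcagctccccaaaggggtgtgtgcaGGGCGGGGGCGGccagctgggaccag
Vamp2, chr10:54292539-54292788, plus strand: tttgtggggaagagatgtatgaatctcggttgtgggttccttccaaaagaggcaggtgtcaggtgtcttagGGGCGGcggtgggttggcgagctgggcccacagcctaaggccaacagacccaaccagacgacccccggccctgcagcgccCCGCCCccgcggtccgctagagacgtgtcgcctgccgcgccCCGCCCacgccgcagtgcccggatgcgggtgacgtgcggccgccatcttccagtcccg
Both runs hold 3 GC boxes. Of 33469 RefSeq promoter windows of this length, 30.5% held at least 1. Of the other members, Syn2 had 3, Cplx1 had 2, Cplx2 and Napb had 1 each and Syn1 had 0. No window was found for Snap25.

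Values are unique molecular identifier (UMI) counts, that is, counted transcript molecules, and levels are UMIs per 10000 UMIs of the same cells. Over the 19 replicates the totals ran from 220162 to 1523537 UMIs, in 42 to 384 cells. There were 9 cell barcodes shared between reactions. The members were sparse: Syt1 gave 4386 UMIs in dorDG and 4345 in venDG, Syn2 2721 and 3728, Snap25 1941 and 2455, whereas Napb gave 146 and 136 and Cplx1 140 and 319. Vamp2 gave 558 and 778, Cplx2 547 and 421, and Syn1 335 and 381. In sums over cells, fewer cells of a type and less RNA per cell cannot be told apart.

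The authors named 12 dorDG cell types, and these names are used as labels only, because 3 of the 4 neuronal labels did not match their markers well. The 72 cells named Mossy held 0 UMIs of 3 of the 4 mossy cell markers (Calb2, Drd2 and Nmb) and 66 UMIs of the fourth, Calcrl, or 1.40 per 10000. Their summed pan-neuronal level was 1.78 per 10000, against 24.3 for mural and 30.6 for endothelial markers. The mural genes Vtn, Higd1b and Rgs5 were among their leading genes. Their oligodendrocyte markers summed to 74.7, near the 76.0 of Endothelial and 75.3 of Microglia1 and below the 497 of Oligodend1. The 147 cells named InhibNeuron held 0 UMIs of the vesicular GABA transporter Slc32a1 and 0.296 per 10000 of Gad1, with 3.21 per 10000 of the glutamate transporter Slc17a7 and 1.88 of the granule cell factor Prox1. Their 7 inhibitory markers summed to 0.651, their 7 granule cell markers to 8.43 and their excitatory markers to 7.13. Of the granule cell sum, Stxbp6 alone gave 5.88, while C1ql2 and Tdo2 were at 0. The 119 cells named Granule carried 818 UMIs per 10000 of 3 erythroid genes, and their granule cell markers summed to 3.82.

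The members fell into different patterns across the dorDG types. The types were built from all genes, so the following is a description without a test. Syt1 was highest in ExcitNeuron (26.6 ± 14.2 per 10000, SD, n = 4 replicates), followed by InhibNeuron (19.2 ± 5.09, n = 6) and Granule (11.3 ± 7.56, n = 9). It was 5.51 ± 2.36 in oligodendrocyte precursors (OPC, n = 7), and between 1.45 and 2.54 in each of the other 8 types, Mossy included. The means were 18.3-fold apart from highest to lowest.

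Snap25 followed the same order at the top, with 10.4 ± 4.20 in ExcitNeuron, 8.48 ± 2.73 in InhibNeuron and 4.86 ± 2.88 in Granule, and lay between 0.80 and 2.30 in the other 9 types. Napb was highest in InhibNeuron (0.675 ± 0.120) and lowest in Microglia2 (0.0218 ± 0.0653). The neuronal types without Mossy supplied 77.4% of the Syt1 UMIs of dorDG, 75.9% of those of Snap25 and 67.8% of those of Napb.

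The remaining members were spread more widely over the types. Vamp2 was highest in InhibNeuron (1.51 ± 0.825), yet Oligodend2 (1.07 ± 0.405) and Oligodend1 (1.03 ± 0.319) stood above Granule (0.903 ± 1.02). Cplx2 was highest in InhibNeuron (2.11 ± 0.977) and next in BergGlia (1.76 ± 1.35, n = 4). The BergGlia value rests on 6 UMIs in 43 cells, and pooled over cells it was 1.206 against 1.217 in Granule. Cplx1 was highest in ExcitNeuron at 0.549 per 10000, and Syn1 also in ExcitNeuron at 0.646, close to its level of 0.614 in OPC. The same 3 neuronal types supplied 52.1% of the UMIs of Cplx1, 49.1% of Vamp2, 48.6% of Cplx2, 39.3% of Syn2 and 36.1% of Syn1.

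Syn2 was nearly as high in Microglia1 (5.87 per 10000) as in InhibNeuron (6.34), but was 2.49 ± 1.19 in Microglia2. The ratio of Syn2 to Syt1 UMIs was 0.274 in ExcitNeuron, 0.311 in InhibNeuron and 0.41 in Granule, against 3.67 in Microglia1 and 2.18 in Endothelial. The ratio of Snap25 to Syt1 stayed between 0.363 and 0.579 in 11 of the 12 types and was 1.5 in BergGlia, where Syt1 had 8 UMIs. Syn2 overlaps the gene Timp4 in the annotation, and how the counting split reads there was not tested. For none of the 8 members did 2 neighbours in the order of the 12 types differ by more than the sum of their SDs.

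**Figure D1:**
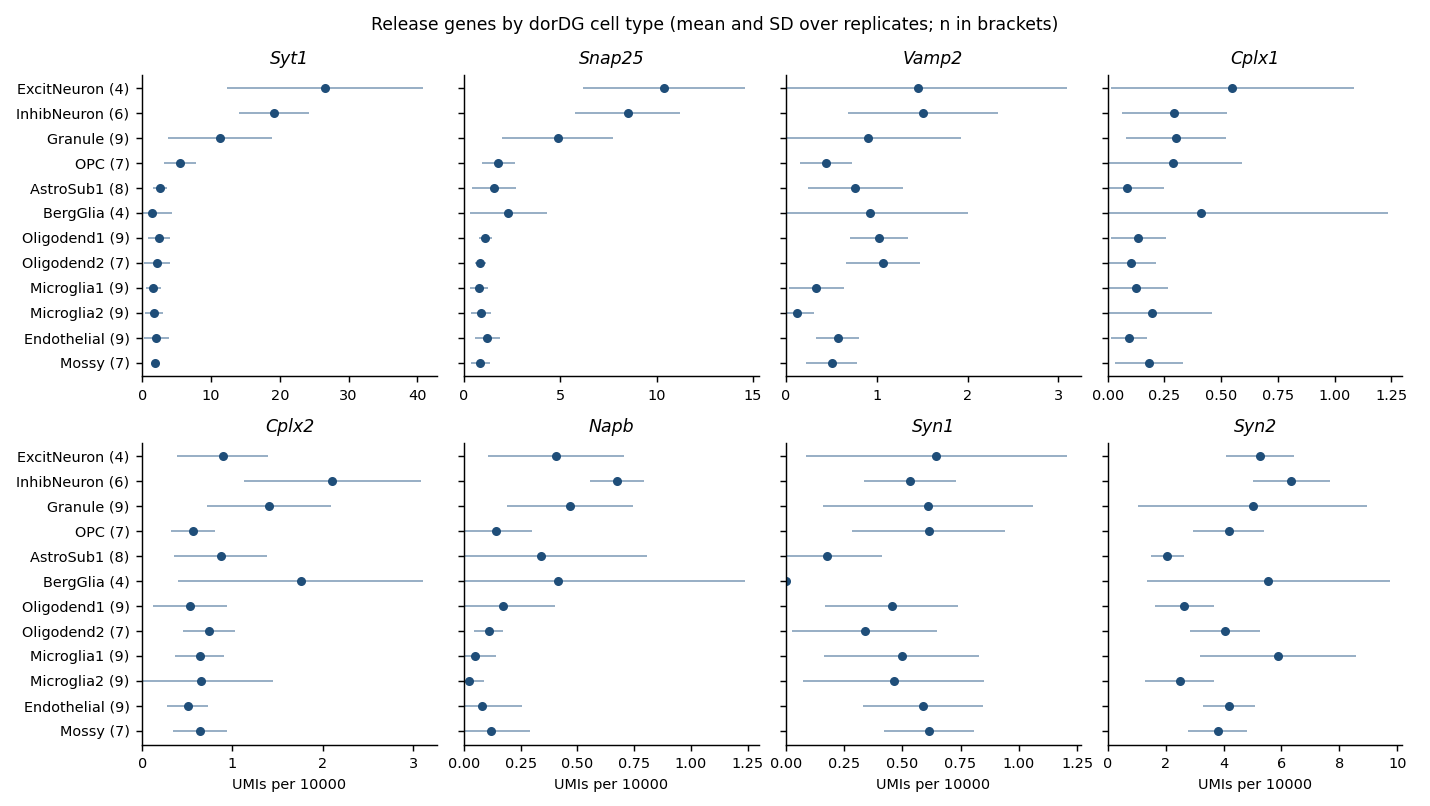
Mean level of each member in UMIs per 10000 in the 12 dorDG types, with bars of 1 SD over replicates (cut at 0) and the number of replicates in brackets. Syt1 and Snap25 peak in ExcitNeuron, InhibNeuron and Granule, whereas Syn2 is about as high in Microglia1 (5.87) as in InhibNeuron (6.34) but not in Microglia2 (2.49).

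The share of cells with at least 1 UMI gave the same contrast after each cell was thinned to 1000 UMIs. Syt1 was seen in 86.4% of 147 InhibNeuron cells (95% Wilson interval 79.9% to 91.0%) and 79.2% of 53 ExcitNeuron cells, against 7.69% of 104 Microglia1 cells and 18.3% of 169 Endothelial cells, types that should lack it. Without thinning these shares were 99.3%, 92.7%, 46.7% and 40.6%, at median depths of 5846, 6372, 6669 and 2945 UMIs. Syn2 was seen in 44.2% of InhibNeuron cells (36.4% to 52.3%) and 40.4% of Microglia1 cells, a share inside that interval, and its unthinned shares were 93.2% and 88.8%. At this depth a difference in Syn2 between InhibNeuron and Microglia1 was not detectable. In Microglia2 the thinned share was 27.6% of 87 cells, with 16 cells too shallow. Intervals cover counting error only, and 3, 2 and 11 cells of Microglia1, ExcitNeuron and Endothelial were too shallow to be thinned.

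In venDG, where cell types were rebuilt by clustering, Syt1 was 20.4 ± 3.97 per 10000 in Excitatory-like cells (n = 8 replicates), 3.79 ± 1.29 in OPC-like cells (n = 9) and 1.35 ± 0.553 in Microglia-like cells (n = 10). Snap25 was 10.2 ± 3.99, 1.96 ± 0.873 and 0.876 ± 0.285 in the same classes. Vamp2 was 1.62 ± 1.20, 0.771 ± 0.419 and 0.285 ± 0.308 in these classes. It was 1.34 ± 0.418 in Astrocyte-like and 0.957 ± 0.533 in Oligodendrocyte-like cells, and 3.05 ± 0.329 in Granule-like cells (n = 2).

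The genes most like 7 of the members over the 12 dorDG types were found by Pearson correlation of log2 mean levels among 7560 genes. They are a description, with points that share libraries and depth. Those of Syt1 were Kcnd2 (r = 0.99), CAMK2A (0.98) and Grm7 (0.98), and those of Snap25 were Klhl29, Clstn2 and Uchl1, at 0.98 to 0.99. The closest gene to Napb was Car11 (0.96), to Cplx1 Acbd6 (0.92), to Cplx2 Syt17 (0.92), to Vamp2 Vezt (0.91) and to Syn1 Snd1 (0.94).

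Cells with less than 2% of their UMIs in 120 cytosolic ribosomal protein genes are called ribosome-poor here. They made up 512 dorDG and 714 venDG cells, 36.6% of all. In dorDG they were 117 of 147 InhibNeuron, 95 of 119 Granule and 44 of 55 ExcitNeuron cells. They were 69 of 110 AstroSub1 and 87 of 171 Oligodend1 cells, but 10 of 107 Microglia1, 14 of 180 Endothelial and 8 of 72 Mossy cells. Ribosome-poor cells thus held another mix of types than the other cells, and the part of that mix in the values over all cells was not tested. Within replicates they differed from the other cells in most genes: 85.4% of the 4384 genes tested in dorDG and 83.1% of the 4354 in venDG were called, at an adjusted p of at most 0.2 and a change of at least 25% in edgeR's quasi-likelihood test with the replicate as a block. Against that background 4 of 6 tested members were called in dorDG and 4 of 5 in venDG, a share no higher than that of all genes.

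Syt1 was higher in the ribosome-poor cells of every replicate. Its dorDG level had a lowest, median and highest value of 4.50, 15.9 and 25.4 per 10000 in ribosome-poor cells against 1.48, 2.5 and 4.46 in the others (n = 9), so the ranges did not overlap. In venDG the values were 8.44, 14.5 and 23.1 against 1.61, 2.23 and 3.46 (n = 10), again without overlap. The log2 fold change was 2.01 ± 0.24 (SE, adjusted p = 2.4e-07) in dorDG and 2.20 ± 0.19 (adjusted p = 9.9e-10) in venDG.

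Snap25 rose as well, by 0.91 ± 0.26 (log2, adjusted p = 0.0037) in dorDG and 1.09 ± 0.16 (adjusted p = 2.8e-06) in venDG. It was higher in 8 of 9 dorDG replicates, with a median of 4.74 against 1.83 per 10000, and in 10 of 10 venDG replicates, with a median of 5.55 against 1.86. Napb lay below the level filter of 0.5 UMIs per 10000. It was higher in 8 of 9 and 10 of 10 replicates, with medians of 0.521 against 0.0992 in dorDG and 0.444 against 0.0712 in venDG, and in the fit without the filter its log2 fold changes were 1.81 ± 0.33 and 1.88 ± 0.31.

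Vamp2 and Syn2 were called lower. Vamp2 fell by 0.98 ± 0.24 on the log2 scale in dorDG (adjusted p = 0.0011) and by 0.60 ± 0.18 in venDG (adjusted p = 0.0039), and its level was lower in ribosome-poor cells in 8 of 9 dorDG but only 5 of 10 venDG replicates. Syn2 fell by 0.61 ± 0.18 and 0.53 ± 0.16 (adjusted p = 0.004 in both), with lower levels in 5 of 9 and 6 of 10 replicates. These calls rest on the scaling. With total UMIs as the library size, in place of the trimmed mean of M-values (TMM), the median of all genes moved up by 0.41 in dorDG and 0.45 in venDG, Syn2 was -0.21 and -0.07 and not called, and Vamp2 was -0.56 and called in dorDG but -0.15 and not called in venDG. Syt1 (2.40 and 2.66) and Snap25 (1.30 and 1.54) were called under that scaling too.

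Cplx2 and Syn1 did not pass the test in dorDG, with log2 fold changes of -0.23 ± 0.21 and -0.01 ± 0.22, and their signs depended on the scaling, since total UMIs gave 0.17 and 0.40, the latter called. Cplx2 was called at -0.33 without Sham replicate 3. In venDG Cplx2 was -0.10 ± 0.25, and 0.36 and called with total UMIs. Cplx1 was below the filter in both regions.

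**Figure D2:**
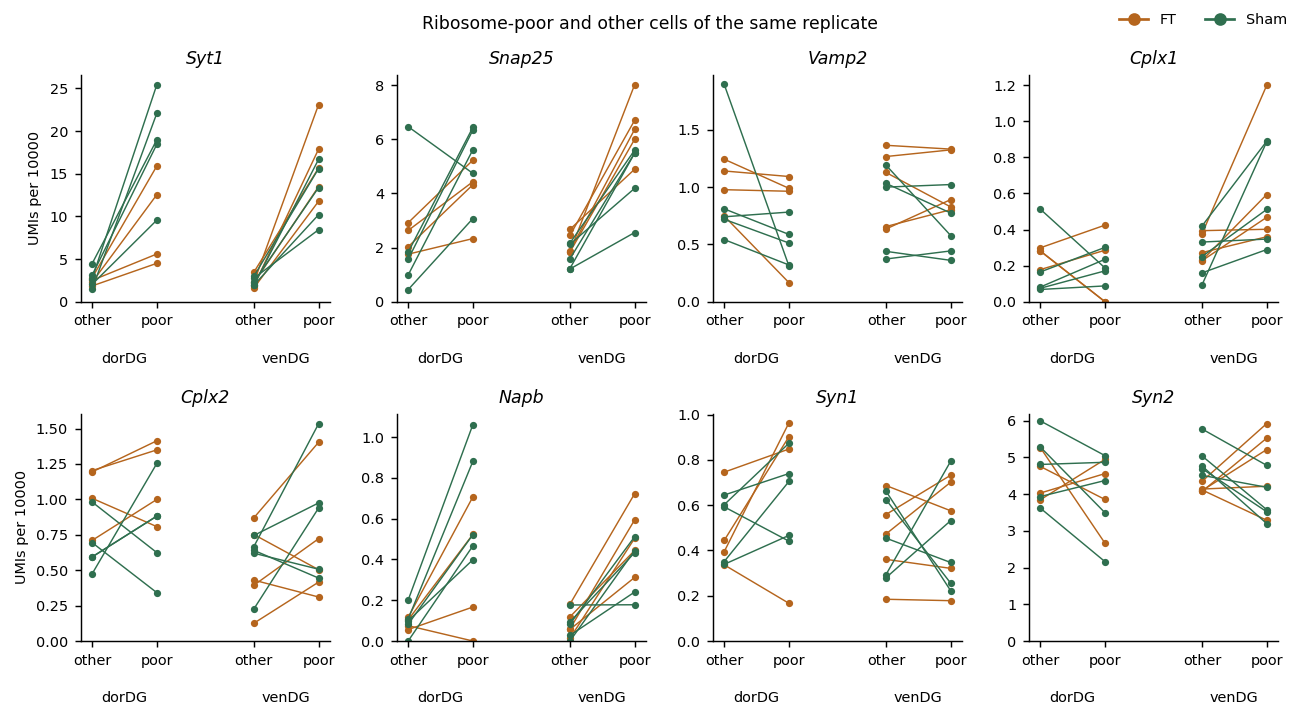
Level of each member in UMIs per 10000 in the other and the ribosome-poor cells of each replicate, with a line joining the pair, for 9 dorDG and 10 venDG replicates. Syt1 rises along every line, whereas Vamp2 falls in 8 of 9 dorDG and 5 of 10 venDG replicates.

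The partners of the members were followed with a list of 56 further genes of the release machinery. In dorDG 33 were tested, of which 25 were higher and 4 lower in ribosome-poor cells, with a median log2 fold change of 1.16 against 0.14 for all genes, of which 45.3% were called higher. The highest were Syt7 (2.62 ± 0.25), a slow calcium sensor, and the active zone genes Ppfia2 (2.37 ± 0.20) and Erc2 (2.21 ± 0.26). The lowest were Snapin (-1.67 ± 0.25), a SNAP-25-binding protein, Rab3a (-1.10 ± 0.24), a vesicle GTPase, and Napa (-0.46 ± 0.23), the alpha-SNAP paralog of Napb. In venDG 35 were tested, with 29 higher and 4 lower, a median of 1.12 against 0.06 for all genes, of which 42.6% were called higher. Of 4 tested SNARE genes that most cells use, 1 was higher and 2 were lower in each region.

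Within single types the members moved apart further. InhibNeuron cells had ribosome-poor and other cells in 3 replicates, with at least 2 cells of each kind, and 41.6% of 4708 genes were called. In those 3 replicates Syt1 was at 19.0, 24.9 and 21.1 per 10000 in ribosome-poor cells and at 14.4, 11.3 and 8.99 in the others, and Vamp2 was at 0.774, 0.327 and 0.352 against 3.95, 3.58 and 3.19. The values of the 2 kinds of cell did not overlap for either gene. Syt1 was higher in ribosome-poor cells by 0.72 ± 0.28 on the log2 scale (adjusted p = 0.046), whereas Snap25 fell by 1.26 ± 0.29 (adjusted p = 0.00047), Vamp2 by 3.03 ± 0.46 (adjusted p = 2.6e-07) and Cplx2 by 1.43 ± 0.40 (adjusted p = 0.0047). These calls held with total UMIs, but that of Syt1 was lost without Sham replicate 4 (0.65) or Sham replicate 5 (0.57).

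Over the 4 neuronal labels pooled, Syt1 was 1.47 ± 0.34 higher (log2, adjusted p = 0.00042), Vamp2 fell by 1.35 ± 0.40 (adjusted p = 0.0045) and Cplx2 fell by 1.06 ± 0.35 (adjusted p = 0.01), among 70.5% of 4330 genes called. Snap25 was -0.06 ± 0.39, and Syn2 was called at -0.51 without Sham replicate 1. Without the cells named Mossy, 6 members were called: Syt1 was 0.80 ± 0.33 higher, and Snap25 fell by 1.17 ± 0.33, Vamp2 by 2.19 ± 0.36, Cplx1 by 1.41 ± 0.52, Cplx2 by 1.61 ± 0.35 and Syn2 by 0.74 ± 0.32. In the neuron-like clusters of venDG (4 replicates, 25.6% of 4696 genes called), Vamp2 fell by 1.92 ± 0.43, Cplx2 by 1.37 ± 0.51 and Snap25 by 0.74 ± 0.37 (adjusted p = 0.0009, 0.066 and 0.20), whereas Syt1 was 0.50 ± 0.37 and not called. There the Snap25 call was lost without FT replicate 3 (-0.70), FT replicate 5 (-0.80) or Sham replicate 1 (-0.54), and the Cplx2 call without FT replicate 2 (-1.01), a fit that called Cplx1 at -1.30. Snap25 was therefore higher in ribosome-poor cells over all cells but lower in InhibNeuron and over the neuronal labels without Mossy, while in Granule it was at 4.65 against 4.07 per 10000 and not called. In ExcitNeuron, too few replicates to fit, Snap25 was at 7.72 against 21.9 per 10000, pooled over cells. The neuronal labels other than Mossy were mostly ribosome-poor, as given above, so the set over all cells also differs in its mix of types. The difference between these estimates, and the part of that mix in it, was not tested.

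In Granule cells, where 33.1% of 3618 genes were called, Syt1 was the only member called, higher by 1.65 ± 0.54 (adjusted p = 0.017). In Oligodend1, where 52.8% of 4251 genes were called, Syt1 was higher by 1.44 ± 0.47 and Snap25 by 1.77 ± 0.62, and Vamp2 fell by 1.40 ± 0.65 and Syn2 by 1.37 ± 0.55. In AstroSub1, an astrocyte label with 38.4% of 4460 genes called, Syt1 was higher by 1.51 ± 0.56, and Vamp2 fell by 2.21 ± 0.98 and Syn2 by 1.40 ± 0.60. In Oligodend1 the fall of Vamp2 was not called with total UMIs (-0.89), and in AstroSub1 that of Syn2 was not (-0.86). With the limit for ribosome-poor cells set at 1.5% or 2.5%, 0 members were called in AstroSub1 by edgeR and 0 had an unadjusted p under 0.05, in fits of 4 replicates in place of 6. Leaving out 1 replicate ended the Vamp2 call in Oligodend1 (-0.95 without FT replicate 2) and in AstroSub1 (-1.89 without Sham replicate 5) and the Syn2 call in Oligodend1 (-1.002 without Sham replicate 5). In Granule it made Cplx2 a call (-1.19 without FT replicate 1).

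**Figure D3:**
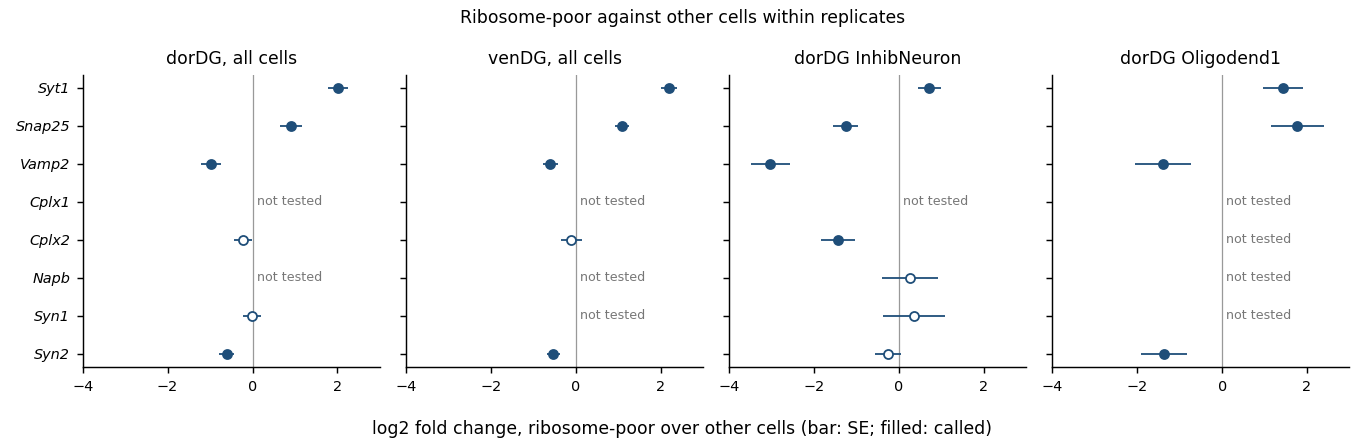
Log2 fold change of each member, ribosome-poor over other cells of the same replicates, with bars of 1 SE and filled points for called genes, under TMM scaling. Syt1 lies right of 0 in all 4 panels and Vamp2 left of 0, whereas Snap25 is right of 0 over all cells and left of 0 in InhibNeuron.

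A split that comes from the labels rather than from counts is that by reaction, since 8 replicates were run in 2 reactions. First and second follow the order of the reaction names, as the labels give no order of running. This split is not independent of the ribosomal split. In dorDG FT replicates 1 and 2 ribosome-poor cells were 78.3% and 92.5% of the second reaction against 9.17% and 7.69% of the first. In dorDG Sham replicates 1 and 2 they were 93.9% and 85.7% against 4.08% and 8.20%. The second reaction held Syt1 at 8.54, 13.1 and 23.9 per 10000 (lowest, median and highest) against 1.32, 2.60 and 3.19 in the first, without overlap. It was higher in 8 of 8 replicates, by 2.07 ± 0.24 on the log2 scale (adjusted p = 1.6e-06), among 84.1% of 4378 genes called. Snap25 and Napb were also higher in 8 of 8, with medians of 4.64 against 2.35 and 0.504 against 0.0985 per 10000, and Snap25 was called at 0.78 ± 0.28. Cplx2 fell by 0.83 ± 0.23, Vamp2 by 0.72 ± 0.18 and Syn1 by 0.61 ± 0.26 in the second reaction. With total UMIs Cplx2 was still called (-0.37), whereas Vamp2 (-0.26) and Syn1 (-0.15) were not. Syn2 was called lower at -0.37 ± 0.18, although it was higher in 4 of 8 replicates and at 0.092 with total UMIs, and the call was lost without dorDG Sham replicate 2 (-0.31). Which reaction held nuclei is not stated in the sources used here, and the part of that difference in these values was not tested.

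For fluoxetine, the comparison over all dorDG cells called 28.6% of 4274 genes, and 2 of 6 tested members were called. Syt1 was at 5.29, 4.72, 2.12 and 2.78 per 10000 in the 4 FT replicates and at 10.8, 4.32, 18.6, 8.28 and 7.94 in the 5 Sham replicates. Sham replicate 2 lay among the FT values, so the groups overlapped. The log2 fold change was -1.31 ± 0.38 (edgeR adjusted p = 0.155), a fall. The call was lost when FT replicate 4 or 5 or Sham replicate 1, 3 or 5 was left out, with changes of -1.12, -1.18, -1.28, -1.01 and -1.40.

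Cplx2 was at 1.24, 0.96, 0.74 and 1.22 per 10000 in FT and at 0.723, 0.587, 1.02, 0.887 and 0.685 in Sham, overlapping between the groups. It was 0.51 ± 0.22 higher (log2, adjusted p = 0.186), and was called in only 2 of the 9 fits that left out 1 replicate: those without Sham replicate 2 (0.47) and Sham replicate 4 (0.55). With total UMIs it was 0.42 and not called. Snap25 (-0.37 ± 0.35), Vamp2 (0.39 ± 0.31), Syn2 (0.08 ± 0.22) and Syn1 (-0.01 ± 0.28) did not pass the test, although Snap25 did without Sham replicate 2 (-0.56) and Vamp2 without Sham replicate 4 (0.70). Napb and Cplx1 were below the filter, and Napb was at 0.0672 to 0.228 per 10000 in FT against 0.19 to 0.427 in Sham.

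Of the 56 partner genes 32 were tested, and 0 were higher and 15 lower, with a median log2 fold change of -0.60 against -0.04 for all genes, of which 16.1% were called lower. In the cells that were not ribosome-poor, 0 of 27 tested partners were called by edgeR or DESeq2 and 0 had an unadjusted p under 0.05, with a median of -0.18. In ribosome-poor cells 1 of 37 was lower, the priming factor Unc13a (-1.59 ± 0.40), with a median of -0.08. Over all cells the lowest were Ppfia2 (-1.47 ± 0.40), the priming factor Unc13b (-1.09 ± 0.40) and the active zone scaffold Rims1 (-1.09 ± 0.37). Of 4 tested SNARE genes that most cells use, 0 were called.

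**Figure D4:**
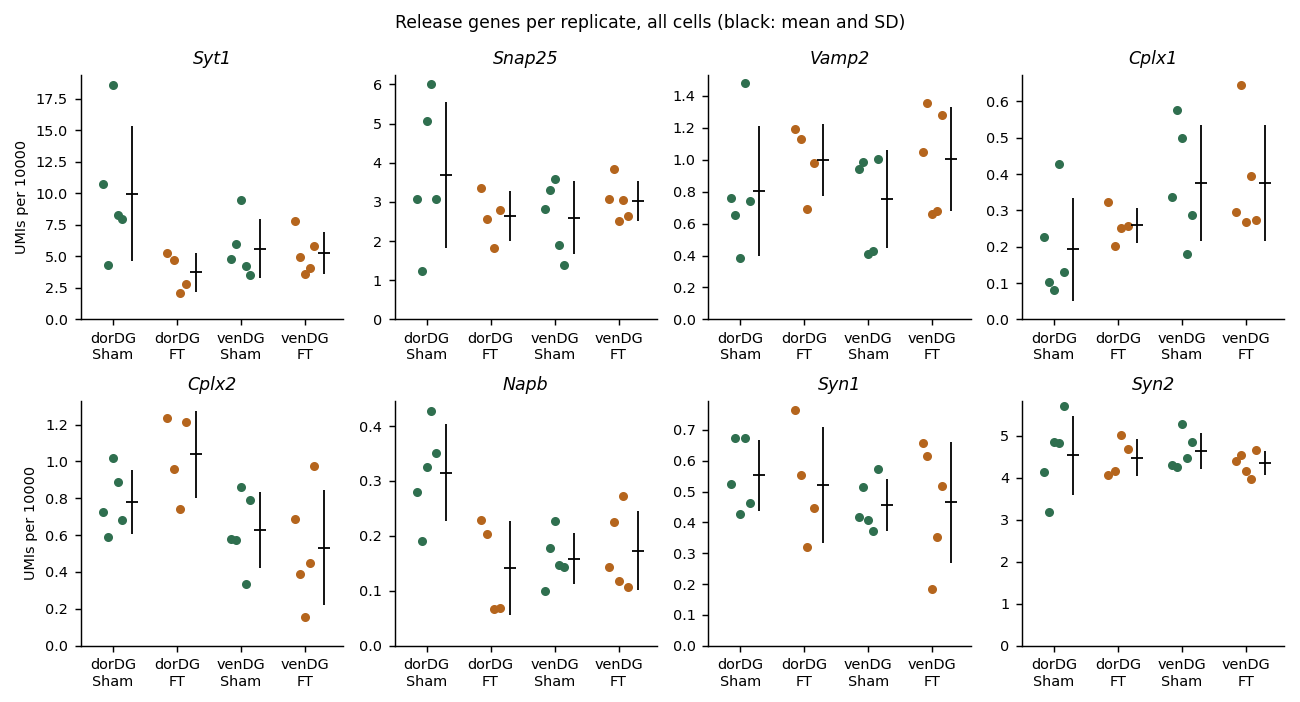
Level of each member over all cells of a replicate, in UMIs per 10000, by region and treatment, with a point for each replicate and the mean with 1 SD in black. The dorDG Syt1 points overlap between Sham and FT at 4.32 to 5.29.

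The make-up of the dorDG replicates moved with these results. Ribosome-poor cells were 23.0 ± 13.0% of cells in FT and 51.2 ± 14.7% in Sham (two-sided exact permutation p = 0.032), and the neuronal labels without Mossy were 16.6 ± 8.09% against 31.5 ± 8.37% (exact permutation p = 0.048). The smallest p this design allows is 0.0159. The summed level of the pan-neuronal markers averaged 5.41 ± 1.23 under FT against 7.84 ± 3.01 under Sham (exact permutation p = 0.206), and within the cells that were not ribosome-poor it was 4.83 against 4.81 (exact permutation p = 0.905). In those cells the FT replicates were at 4.58, 5.87, 4.47 and 4.42, and the Sham replicates at 2.77, 3.70, 3.52, 10.8 and 3.24. Only Sham replicate 4 lay above the FT values, and the other Sham replicates lay below all of them. The mural marker sum averaged 3.67 under FT against 1.52 under Sham (exact permutation p = 0.032). In the cells that were not ribosome-poor Syt1 differed by -0.23 ± 0.27, with 0 of 3800 genes called (0%), and in ribosome-poor cells by -0.75 ± 0.37, with 0.525% of 4379 genes called but 0 of 7 tested members. At an unadjusted p under 0.05, 1 member passed in each of these sets, Cplx2 (0.56) and Vamp2 (0.92), and DESeq2 called 0 in both.

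Within the dorDG types, calls of members came from Oligodend1 alone, where 6.15% of 3693 genes were called. Syt1 was at 0.798, 1.56, 0.819 and 1.29 per 10000 in FT and 2.79, 5.70, 4.14, 2.17 and 2.94 in Sham, without overlap, a log2 fold change of -1.51 ± 0.36 (adjusted p = 0.075). Cplx2 was at 1.40, 0.833, 0.546 and 0.719 in FT and 0.411, 0.368, 0.295, 0.241 and 0 in Sham, also without overlap, at 1.74 ± 0.60 (adjusted p = 0.174), on 24 and 9 UMIs. The Syt1 call was lost without FT replicate 1, 4 or 5 (adjusted p = 0.202, 0.294 and 0.239), and that of Cplx2 held without Sham replicate 1 (2.21) or Sham replicate 4 (1.73) but not without FT replicate 4 (1.86), FT replicate 5 (1.79), Sham replicate 2 (1.85), 3 (1.72) or 5 (1.26). Without FT replicate 1 or 2 Cplx2 was below the filter. Both calls were lost in the cells that were not ribosome-poor, at -1.05 for Syt1 and 2.09 for Cplx2.

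In InhibNeuron 0 of 4657 genes were called (0%), whereas 4 members had an unadjusted p under 0.05: Vamp2 (1.61 ± 0.50, adjusted p = 0.23), Syt1 (-0.71 ± 0.28), Snap25 (0.71 ± 0.30) and Syn2 (0.67 ± 0.29). DESeq2 called 3 members there, and so did edgeR without Sham replicate 4 (Syt1 at -0.76, Snap25 at 0.998 and Vamp2 at 2.14), while 4 were called without FT replicate 1 (Syt1 at -0.92, Snap25 at 0.79, Vamp2 at 1.76 and Syn2 at 0.79). With the replicate number as a block edgeR called Vamp2 (1.47, adjusted p = 0.0059), Syt1 (-0.73, adjusted p = 0.080) and Syn2 (0.65, adjusted p = 0.194) there. Vamp2 was at 2.28, 2.30, 4.50 and 3.75 per 10000 in FT, with 4 to 14 cells a replicate, and at 0.83, 0.383, 2.09 and 1.17 in the 4 Sham replicates with such cells, without overlap. Pooled over InhibNeuron cells, Vamp2 was at 0.572 per 10000 in ribosome-poor and 3.63 in other cells. FT replicate 1 held 8 ribosome-poor and 6 other InhibNeuron cells, Sham replicate 4 held 8 and 8, and Sham replicate 5 held 22 and 4. The part of this mix in the Vamp2 values was not tested. The share of genes called was also 0% in Endothelial, Granule, BergGlia, Microglia1, Mossy and OPC, 0.0232% in AstroSub1, 0.162% in ExcitNeuron, 0.0581% in Microglia2 and 0.029% in Oligodend2, with 0 members called. DESeq2 called 1 member in ExcitNeuron and 0 in the other 9. Of the members tested there, Syt1 had a negative log2 fold change in all 10 of these types, from -0.33 in Mossy to -2.45 in BergGlia, and an unadjusted p under 0.05 in Endothelial and OPC, as Cplx2 had in Granule (1.23) and Microglia2 (2.13). Over the neuronal labels pooled, where 17.6% of 4522 genes were called, 0 members were called, Syt1 at -0.99 ± 0.43 (adjusted p = 0.205) and Vamp2 at 1.08 ± 0.49 (adjusted p = 0.218), although DESeq2 called 3. Syt1 was called there without FT replicate 1 (-1.31), Sham replicate 2 (-1.24) or Sham replicate 4 (-1.05), the last with Vamp2 (1.71). Without the cells named Mossy, Syt1 was -0.62 ± 0.35 and Vamp2 1.41 ± 0.50, and in the cells of these labels that were not ribosome-poor Syt1 was 0.04 ± 0.38 and Vamp2 0.19 ± 0.57, none of them called. Over the other types pooled, 0 of 3879 genes were called (0%), with Syt1 at -0.85 ± 0.20, and DESeq2 called 1 member, as did edgeR without Sham replicate 4 (Syt1 at -0.95).

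**Figure D5:**
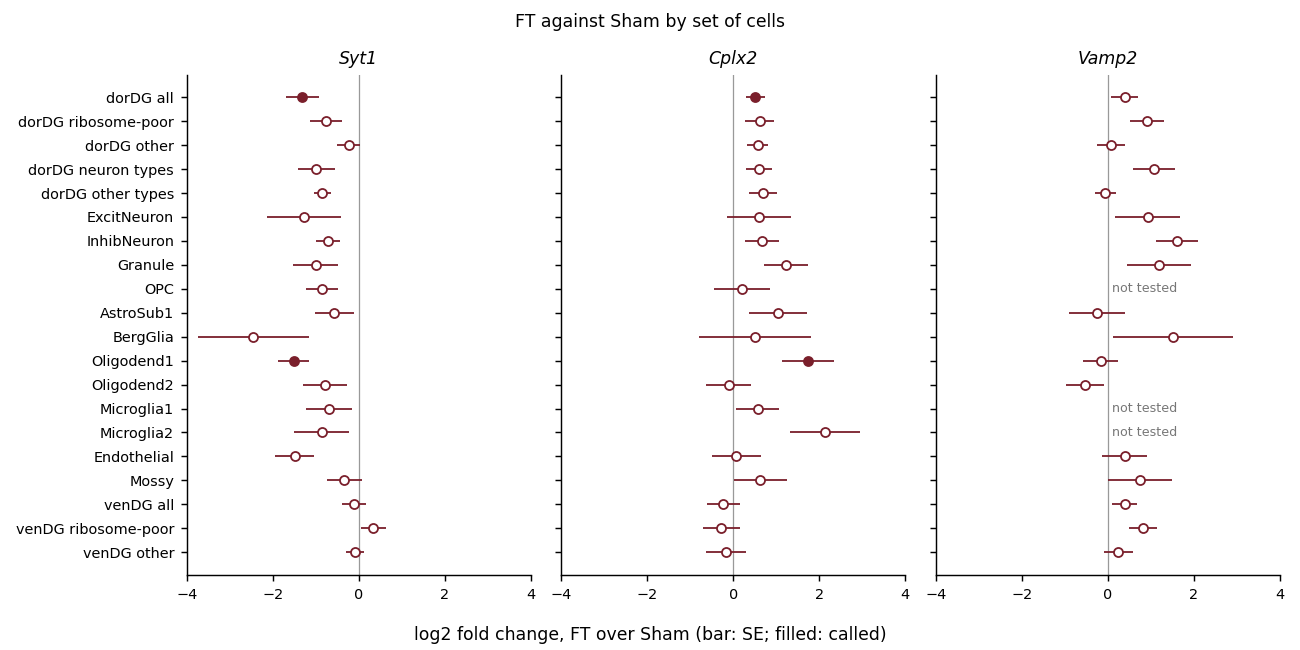
Log2 fold change of Syt1, Cplx2 and Vamp2, FT over Sham, in sets of dorDG and venDG cells and in the 12 dorDG types, with bars of 1 SE and filled points for called genes. Syt1 lies left of 0 in every dorDG set, but is called in all dorDG cells and in Oligodend1 alone.

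In venDG no member was called. Syt1 was at 7.79, 4.92, 3.62, 4.11 and 5.84 per 10000 in FT and 4.75, 5.97, 9.45, 4.23 and 3.55 in Sham, overlapping throughout, with a log2 fold change of -0.11 ± 0.28. Over all venDG cells 0 of 4079 genes were called (0%), and 0 of the 5 tested members had an unadjusted p under 0.05. In the ribosome-poor and in the other venDG cells 0% of genes were called as well, and 1 member of the former, Vamp2 (0.82 ± 0.32), had an unadjusted p under 0.05. Among the venDG classes the share of genes called was 2.41% in Astrocyte-like, 0.127% in Mural-like and 0% in Excitatory-like, OPC-like, Oligodendrocyte-like, Endothelial-like and Microglia-like cells, with 0 members called in any by edgeR or DESeq2. Without FT replicate 1, Syt1 was called in Astrocyte-like cells (-1.35). Granule-like cells were not compared between FT and Sham, because a cluster of theirs had more markers of another class than of its own among its leading genes. They were, however, pooled with Excitatory-like and Inhibitory-like cells in the neuron-like clusters used above for ribosome-poor against other cells.

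The dorDG effect was not shown to differ from the venDG effect. For Syt1 the interaction of region and treatment was -1.25 ± 0.49 (unadjusted p = 0.019, adjusted p = 0.518), and 0 of 4161 genes were called (0%), with DESeq2 calling 0 members. Without dorDG Sham replicate 2 the Syt1 interaction was called, at -1.44 (adjusted p = 0.155). Between regions, 0 of 4313 genes were called in Sham (0%), where Syt1 was 0.72 ± 0.36 higher in dorDG (adjusted p = 0.639). That fit had no block. With the replicate number as a block, Syt1 was 0.69 ± 0.24 higher in Sham (edgeR unadjusted p = 0.016, adjusted p = 0.288) and was not called. In FT 0.275% of 3994 genes were called but 0 members, with Cplx2 at 1.02 ± 0.38 (adjusted p = 0.468) and Syt1 at -0.49 ± 0.29, also without a block. With the block edgeR called Syt1 (-0.65, adjusted p = 0.115) and Cplx2 (0.80, adjusted p = 0.103) in FT. Deviations of same-numbered FT replicates correlated from 0.096 to 0.35. DESeq2 called 1 member in FT and 0 in Sham.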

How the data were processed

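The deposited matrices, 1 a region, give each cell's unnormalised UMI counts by gene, made by the authors with Cell Ranger from 10x Genomics 3′ libraries after their own filters on cells. For dorDG the authors' annotation of cells (other, non-count information) supplied the type names. The submitters' notes list Seurat 3 and rn5. The 108 libraries form 27 reactions of 19 replicates, grouped by the labels. Of the venDG columns, 170 carrying an unexplained second suffix were left out, and no doublet caller was run. A replicate is all reactions of a number in the labels, and p-values measure the spread between pools.

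UMI counts were summed per replicate and set of cells, over replicates with at least 5 cells of a type and types with at least 3 replicates a group. InhibNeuron, ExcitNeuron and BergGlia missed this and were fitted with every replicate that held such cells. Genes averaging 0.5 UMIs per 10000 or more entered the test in edgeR 4.0.16 (quasi-likelihood F-test, TMM, R 4.3.3) and were called below or at 0.2 after Benjamini-Hochberg adjustment if they changed by at least 25%. Ribosome-poor against other cells, and second against first reaction, were fitted with the replicate as a block. DESeq2 1.42.0, other scalings and other cell sets were alternatives, and total UMIs as the library size was added after the data were seen, as was the minimum of 2 cells of each kind in Granule and InhibNeuron. The fits were tested on simulated data. The SE of a fold change was taken from the F statistic. Shares were compared by exact permutation tests. venDG cells were clustered with scanpy 1.11.5 (Leiden resolution 2) and named from markers, which left 522 of 2058 cells unnamed. Replicate numbers were not taken to pair FT with Sham, since deviations of same-numbered replicates correlated from -0.22 to 0.36. Such correlations cannot show that no batch was shared. For the tissue of its bulk assays the study states that matching Sham and FT samples were handled in parallel. Same-numbered dorDG and venDG Sham replicates correlated from 0.20 to 0.56, and the fits between regions are given with and without a block.

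Named genes are the 8 members, the 3 highest and 3 lowest called partners in a comparison, the 3 genes most like a member, and markers. The members and lists were chosen with earlier results of these data known. The genes most like Syn2 are not reported here.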

Additional observations from a re-analysis of the deposited data

How the results depend on the processing

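The counts of members called depended on the setting most where few were called, and the cause was not tested. Over all dorDG cells 2 members were called by FT. The count was 1 without the filter on level, with total UMIs as the library size or with the cell filter of the study's methods. It was 0 in cells of at least 2% ribosomal UMIs, in cells under 2% and without the neuron types. It was also 0 at an adjusted p of at most 0.05 or with the replicate number as a block. The numbers were not taken to pair FT with Sham. Leaving out 1 replicate gave 0 to 3. In Oligodend1, with 2 called, DESeq2, no filter and total UMIs each gave 1, the cells of at least 2% ribosomal UMIs and an adjusted p of at most 0.05 gave 0, and leaving out 1 replicate gave 0 to 2. The comparisons with 0 called became 3 (neuron types pooled), 3 (InhibNeuron), 1 (ExcitNeuron), 1 (other types pooled) and 1 (dorDG against venDG in FT) with DESeq2. The neuron types pooled also gave 1 with RLE size factors, total UMIs or the replicate block and 0 to 2 with 1 replicate left out. InhibNeuron gave 1 without the filter, 3 with the replicate block and 0 to 4 with 1 replicate left out. The other types pooled, venDG Astrocyte-like cells and the interaction gave 0 to 1 with 1 replicate left out. For dorDG against venDG in FT the replicate block gave 2, Syt1 (-0.65, adjusted p = 0.115) and Cplx2 (0.80, adjusted p = 0.103), where deviations of same-numbered FT replicates correlated from 0.096 to 0.35.

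For ribosome-poor against other cells, no filter on level gave 7 in venDG in place of 4 and 2 in Oligodend1 in place of 4. The neuron types pooled gave 6 without the cells named Mossy in place of 3. The venDG neuron-like clusters, with 3, gave 1 with DESeq2, without the filter or at an adjusted p of at most 0.05, and 5 at a limit of 1.5% ribosomal UMIs. AstroSub1, with 3, gave 0 at limits of 1.5% and 2.5% and 1 at an adjusted p of at most 0.05. Granule, with 1, gave 2 with total UMIs or with no replicate block. With 1 replicate left out the counts were 4 to 5 in dorDG, 4 in venDG, 3 to 4 in the neuron types pooled, InhibNeuron and Oligodend1, 2 to 3 in the neuron-like clusters and AstroSub1, and 1 to 2 in Granule. Second against first reaction gave 3 with total UMIs in place of 6, where Syn2 reversed to 0.092, and 5 to 6 with 1 replicate left out. The replicate block, or its absence, changed no other count of called members by over 1.5 times.

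The highest of the 12 types was a neuronal label other than Mossy for 8 members, and for 5 in ribosome-poor cells alone. The share of cells with a UMI was higher in every one of the 3 neuronal labels than in microglia and endothelial cells for 5 members, and for 2 when thinned to 500 UMIs. In all, 557 of the recomputed counts stayed within 1.5 times of the reported count and 62 did not. Total UMIs moved the called genes of dorDG FT against Sham from 532 higher and 689 lower to 316 and 817, those of the neuron types pooled from 520 and 277 to 530 and 745, those of Oligodend1 from 129 and 98 to 60 and 96, and those of ribosome-poor against other venDG cells from 1856 and 1764 to 2374 and 1472. Cplx1 and Napb, at 140 and 146 UMIs in all dorDG cells, were mostly too sparse to test.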
